A study of Drosophila melanogaster with 3 samples.

Results

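The palindromic E-box CACGTG was present within 100 bp of the summit of 521 regions that lay below the reproducible part of a Hey-GFP ChIP-seq experiment. The regions came from a list of 30000 called on the pooled data of 3 biological replicates. Members were chosen by their rank and by the site. They stand between the last region kept by the authors' irreproducible discovery rate (IDR) filter and rank 10000 of the pooled list by signal value, touch none of the IDR regions, and carry the site. Of 6681 regions at these ranks, 371 touched an IDR region, 18 of them with a CACGTG, and 6310 touched none. The 3 replicates form 1 group of libraries from Drosophila melanogaster, made from whole embryos of mixed sex at 6 to 24 h, from a transgenic line in which GFP is fused to the C terminus of Hey. All 3 carry the transgene, no line without it was analysed here, and whole embryos mix every cell type present at these ages. The labels conflict: a free-text line calls every library an input control, but the assay title, the antibody and a control listed apart from them name a transcription factor ChIP, which is followed here. Read depth is unknown from the lists, and the signal value is the authors' own value per region, of unstated scale, used only to order regions within a list.

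Hey belongs to the bHLH-Orange transcription factors, which hold a basic helix-loop-helix region for DNA contact and dimerisation and an Orange domain, and which mostly act as repressors. Many of them, including the genes of the Enhancer of split complex, are transcribed in response to Notch signalling. In the fly nervous system Hey is known as a factor of newly born neurons in which Notch has been active. Proteins of this family are known to contact CACGTG, which reads the same on both strands, and the related class C site CACGCG, whereas other bHLH proteins, such as Myc with Max, and Clock with Cycle, also use CACGTG.

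The sites below show what was found under the summits, 12 bases to either side of the core, on the plus strand, 5′ to 3′, from the release 6 genome sequence (dm6), with the CACGTG core in capitals. The first group holds members of high rank, and shows that the bases beside the core differ from one region to the next.
pum: tgagagcgtgagCACGTGcgctaacctttg
CG4766: aaaacaggcagtCACGTGtcctcccgctgg
Rbp6: gcaaccgcatcgCACGTGtagcacactcgt
btd: acttccgcgccaCACGTGcaagcgagacga
Nlg4: accggaaacttgCACGTGgcaacggtgctt
ato: ccactcgggcggCACGTGctgccttctgtg
The second group holds the members whose nearest gene is an E(spl) gene by name.
E(spl)m3-HLH: accagtaccgccCACGTGgagtcctttcgc
E(spl)m4-BFM: atggtgtttgtaCACGTGacgacctcgttt
E(spl)m5-HLH: aacactttgcaaCACGTGcaacaccacagt
E(spl)m7-HLH: ctctcgcggcggCACGTGcagctataaaag
The third group holds members with an extended site, in which a G and then an A or G stand before the core, and a C or T and then a C stand after it.
Ptp10D: tcatgttcaggaCACGTGtcagccgtagcc
AstA-R1: gcgtggtttaggCACGTGccataagccatt
bdl: tccctgtgccggCACGTGtcaagcacaagg
lncRNA:CR45337: tggacgttctggCACGTGcctccacataaa
CG14937: gctggatggcggCACGTGccagagcacttg
The last group holds members of neural and patterning genes with values given further on.
l(1)sc: actcgcacaatcCACGTGgctggcgcacac
klu: gagaaagagcagCACGTGcagtggagattt
pros: catacactcacaCACGTGcgtttacgcata
abd-A: tgttccagggaaCACGTGtcgccaactgac
Names are those of the gene with the nearest transcription start site (TSS), which need not be a gene that Hey acts on.

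Member signal values ran from 53.6 to 115.11, with a median of 76.3. The −log10 q-value ran from 1.25 to 3.86, with a median of 2.17. The highest −log10 q-value that the list contains was held by 32 of the 521 members. It was also held by 270 of the 5789 regions of the same ranks without the site. All 569 IDR regions with the site and all 2750 IDR regions without it held this value. The last of the IDR regions had a signal of 115.13 and no site within 100 bp. The region next in rank, in an intron of pum, had a signal of 115.11 and was the highest member. The lowest IDR region with the site stood at rank 3311 (115.33), so values on both sides of the upper edge were nearly equal. At the lower edge the last member stood at rank 9959 with a signal of 53.641, and the next lower region with the site stood at rank 10007 with 53.511. For the distance to the summit, 32 members had the outer base of the site at 90 to 100 bp, and 33 further regions of these ranks had it at 100 to 110 bp.

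The 521 members made up 8.26% of the 6310 regions at these ranks that touched no IDR region (95% Wilson interval 7.60 to 8.96, which like all intervals here covers counting error over regions only). Of equally long windows placed 400 to 600 bp away on both sides of these summits, 2.27% held the site on average. The centre thus held it 3.63 times as often as the flanks, and the flank rate alone would give 143.5 such regions. That rate is a description of the surroundings, and it does not say which members it concerns. The site's excess can be seen in each replicate's own list. At the same ranks of the replicate lists, away from IDR regions, the site was held by 6.74%, 6.73% and 6.78% of regions in replicates 1, 2 and 3. The flanks in those lists held it in 2.63%, 2.30% and 2.40%, so the share at the centre lay above the flanks in all 3 replicates.

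**Figure D1:**
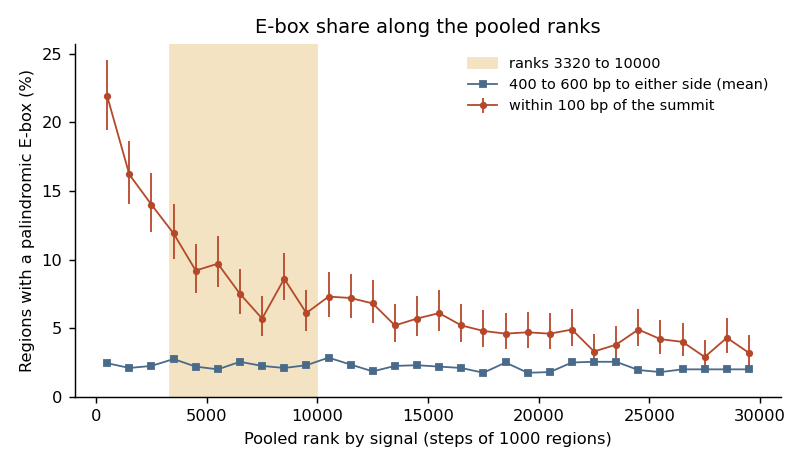
Share of pooled regions with CACGTG within 100 bp of the summit, in steps of 1000 ranks (points, with 95% Wilson intervals), and the mean share in windows 400 to 600 bp away (squares). The shaded ranks, from the last IDR region to 10000, hold the members, and the centre lies above the flanks at every step and is highest at the top ranks.

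The bases next to the core set the members apart from CACGTG sites in the flanks of regions of the same ranks. These flank sites were not limited to the flanks of the members. Counting both strands as 1 form, GCACGTGC was the site of 81 of the 521 members (15.5%) and of 19 of 291 flank sites (6.53%), a difference of 9.02 percentage points (95% Newcombe interval 4.54 to 13.1). ACACGTGG was likewise more frequent in members, at 9.41% against 4.81% (difference 4.59, 0.781 to 8.001). The forms ACACGTGA (6.91% against 12.7%), CCACGTGA (4.41% against 9.62%) and TCACGTGA (1.54% against 4.81%) were less frequent in members, and their intervals of the difference leave out 0. The most common form in both, ACACGTGC, stood at 24.8% in members and 21.6% in flank sites, with an interval from −3.07 to 8.94. These are 10 forms compared at once, without adjustment. GCACGTGC also stood at 13.9% in IDR regions with the site and at 14.1% in regions below rank 10000 with the site. ACACGTGG stood at 8.96% and 7.52% in these sets. The higher shares of these forms were thus not particular to the members. A G stood next to the core on 39.9% of the 1042 sides of the members' sites and a T on 12.9%. The shares of G and T were 39.5% and 11.9% in IDR regions with the site. Below rank 10000 they were 37.7% and 16.2%. At the second base out, G stood on 40.0% of sides, against 50.7% in IDR regions with the site and 34.1% in regions below rank 10000 with the site.

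The extended site was rare among members, and 13 of its 21 copies were palindromes over their whole length. It was found at 21 of 521 (4.03%, 2.65 to 6.08), against 10.5% of the 569 IDR regions with the site, a difference of −6.51 percentage points (−9.63 to −3.46). Against the 957 regions below rank 10000 with the site, where 3.55% held it, the difference was 0.48 (−1.47 to 2.76). More than 1 CACGTG within 100 bp was found in 16 members (3.07%), and in 9.84% of the IDR regions with the site (difference −6.77, −9.74 to −3.90). The class C site CACGCG, searched on both strands with no overlap with the core, lay within 100 bp in 42 members (8.06%), against 3.17% in their flanks. It lay in 10.3% of the 5789 regions of the same ranks without CACGTG (difference −2.23, −4.43 to 0.528) and in 13.2% of the IDR regions with CACGTG (difference −5.12, −8.77 to −1.45).

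The site stood close to the pooled summit in many members. The centre of the nearest site lay within 25 bp of the summit in 215 of 521 (41.3%, 37.1 to 45.5). If sites were spread evenly over the window, 25.5% of places would lie that near. The share was 50.8% in IDR regions with the site (difference −9.52, −15.3 to −3.60) and 33.2% below rank 10000 (difference 8.04, 2.89 to 13.2), so the members lay between the stronger and the weaker regions. The median distance was 32.5 bp in members, 24.5 bp in IDR regions and 38.5 bp in the lower regions.

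The summits called separately in each replicate gave the same order. Where a replicate had a summit within 100 bp of the site's centre, that summit lay within 25 bp of it for 155 of 397 members in replicate 1 (39.0%), 130 of 390 in replicate 2 (33.3%) and 120 of 376 in replicate 3 (31.9%). In IDR regions with the site the shares were 46.5%, 50.1% and 41.8%. All 3 values of the members lay below all 3 of the IDR regions, by 11.3 percentage points on average. A two-sided exact permutation test over unpaired replicates gave p = 0.1, the smallest p that 3 against 3 allows. Both sets come from the same libraries, and paired by replicate number (replicate block) the exact p was 0.25, the smallest that 3 pairs allow. Below rank 10000 the shares were 36.04%, 31.3% and 30.6%. The members were higher in 3 of 3 replicates, by 2.13 percentage points on average, but the values of the groups overlapped (exact permutation p = 0.5). This small difference turned to −0.315 when nearness was set at 15 bp.

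**Figure D2:**
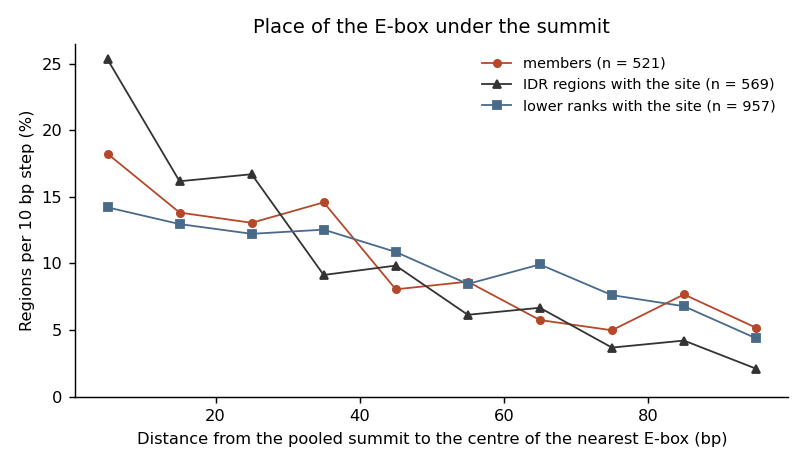
Distance from the pooled summit to the centre of the nearest CACGTG, as the share of regions per step of 10 bp, for the 521 members, the 569 IDR regions with the site and the 957 regions below rank 10000 with the site. All lines are highest near the summit, where the IDR regions lie above the members and the members above the lower regions.

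The 3 replicates held different numbers of the members. A member counts as found in a replicate when a summit among the 10000 highest regions of that replicate lies within 100 bp of the pooled summit. The replicate lists and the pooled list rest on the same libraries, and failing IDR was part of the rule, so these values describe how the replicates contribute. In replicate 1, 239 members were found (45.9%), in replicate 2, 297 (57.0%), and in replicate 3, 262 (50.3%). Of the 521, 67 were found in all 3 (12.9%, 10.3 to 16.0). A further 198 were found in 2 replicates (38.0%, against 35.0% of same-rank regions without the site), 201 in 1 (38.6% against 47.4%) and 55 in none (10.6% against 9.92%). Over all 6310 regions of these ranks away from IDR regions, the share found in all 3 was 8.08%. Of the IDR regions with the site, 83.7% were found in all 3, and of the 957 regions below rank 10000 with the site, 0 were found in all 3, which the ranks nearly fix.

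Regions of the same ranks without the site give the closest comparison. They were found at 50.1%, 47.9% and 42.4% in replicates 1, 2 and 3. The members were thus lower in replicate 1 and higher in replicates 2 and 3. More than 500 bp from a TSS the differences were −1.38, 7.62 and 8.33 percentage points, and nearer to a TSS −6.06, 2.49 and 4.10. Over all regions the mean difference of 4.25 percentage points was within the spread between replicates (two-sided exact permutation p = 0.4). The means were 51.1 ± 5.61 against 46.8 ± 3.95 (SD, n = 3). Members stood somewhat higher within the ranks, at a median rank of 6102 against 6712, and with the others weighted to the members' ranks the mean difference was 1.70. In the lower part of the ranks, split at the middle, it was −2.28, so no direction can be given for it. Without replicate 1 it was 8.48, and without replicate 2 it was 1.83, so each of these replicates moved it by more than 1.5 times, as did leaving out replicate 3, which gave 2.44. In all 3 replicates together, the members' 12.9% stood against 7.65% in regions without the site (difference 5.21, 2.51 to 8.42), and against 9.46% once these were weighted to the members' ranks. All of the members found in all 3 stood in the upper part of the ranks, where 22.7% were found, and in the lower part the share was 0 (upper bound of the Wilson interval 1.67%).

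With all 30000 regions of each replicate allowed, members were found at 80.2%, 79.7% and 76.8%, against 77.4%, 69.3% and 68.4% in regions of the same ranks without the site. They were higher in 3 of 3 replicates, by 7.19 percentage points on average, and the values of the groups overlapped only between replicate 3 of the members and replicate 1 of the others (exact permutation p = 0.2). Weighted to the members' ranks, the differences were 1.46, 9.33 and 6.997. In all 3 lists together stood 246 members (47.2%) and 34.4% of the others (difference 12.8, 8.40 to 17.3), or 36.7% of the others after weighting.

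Among the highest regions of a replicate, as many as passed IDR in the pooled list, members were found at 5.76%, 10.9% and 11.3% in replicates 1, 2 and 3. Regions of the same ranks without the site stood at 10.5%, 8.43% and 7.22%, so the members were again lower in replicate 1 and higher in the others. The mean difference was 0.635 percentage points (exact permutation p = 0.8), or −0.815 with the others weighted to the members' ranks, so it has no fixed direction. None of the 521 was among them in all 3, which the rule makes likely, and 17 were in 2, of which 15 shared replicates 2 and 3. Replicates 1, 2 and 3 alone held 28 (5.37%), 40 (7.68%) and 44 (8.45%) of the members, and 9.95%, 7.50% and 6.08% of the regions without the site, the opposite order. Ranks within a replicate spread widely. In replicate 1 the 418 members with a rank had a median rank of 8782, from 1025 to 28978. In replicate 2 the median of 415 was 6638, from 1135 to 29809, and in replicate 3 the median of 400 was 7440, from 985 to 29988. The pooled order thus joined regions that were high in a single replicate with regions of middling rank in several.

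**Figure D3:**
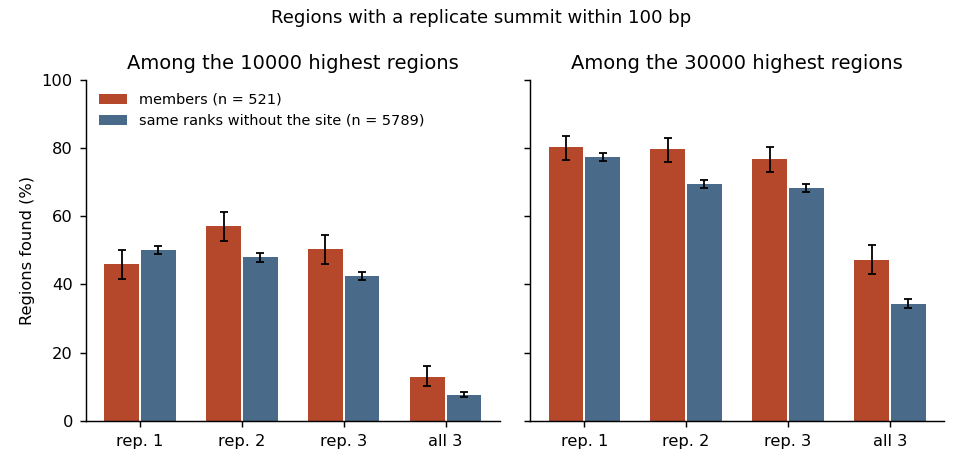
Share of members (n = 521) and of regions of the same ranks without the site (n = 5789) with a replicate summit within 100 bp, among the 10000 highest (left) and all 30000 regions (right) of each replicate and of all 3 together; bars show the share and lines the 95% Wilson interval over regions. Among the 10000 highest the members lie lower in replicate 1 and higher in replicates 2 and 3.

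**Figure D4:**
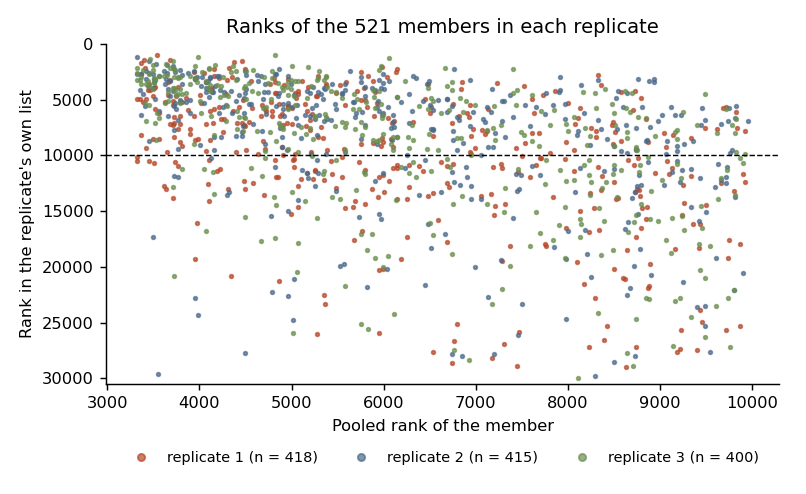
Rank of each member in the list of each replicate (colours) against its pooled rank, with both axes as ranks by signal and the dashed line at rank 10000 of the replicate list. A member has up to 3 points, none where the replicate had no summit within 100 bp, and the ranks fan out below the line as the pooled rank falls.

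Members lay mostly away from promoters. Of 521 summits, 435 were more than 500 bp from a TSS (83.5%, 80.1 to 86.4), against 71.1% of all regions of these ranks away from IDR regions. Regions of the same ranks without the site stood at 70.0%, a difference of 13.5 percentage points (9.86 to 16.7), while IDR regions with the site stood at 82.8% (difference 0.716, −3.76 to 5.15). Members had a median TSS distance of 3289 bp, against 1686 bp in regions of the same ranks without the site. Introns held 271 member summits (52.0%), against 52.5% of the regions without the site (difference −0.481, −4.96 to 3.97). Intergenic sequence held 189 (36.3%), against 31.4% (difference 4.84, 0.646 to 9.22). The 5′ UTRs held 28 (5.37%), against 9.24% in regions without the site (difference −3.87, −5.67 to −1.47). Coding exons held 16 (3.07%), against 1.85% of the regions without the site (difference 1.22, −0.00946 to 3.11, which includes 0), 0.879% of the IDR regions with the site (difference 2.19, 0.542 to 4.12), and 7.94% of the lower regions with the site (difference −4.87, −7.09 to −2.45). The X chromosome held 56 members (10.7%), against 14.6% of the regions without the site (difference −3.90, −6.45 to −0.817).

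**Figure D5:**
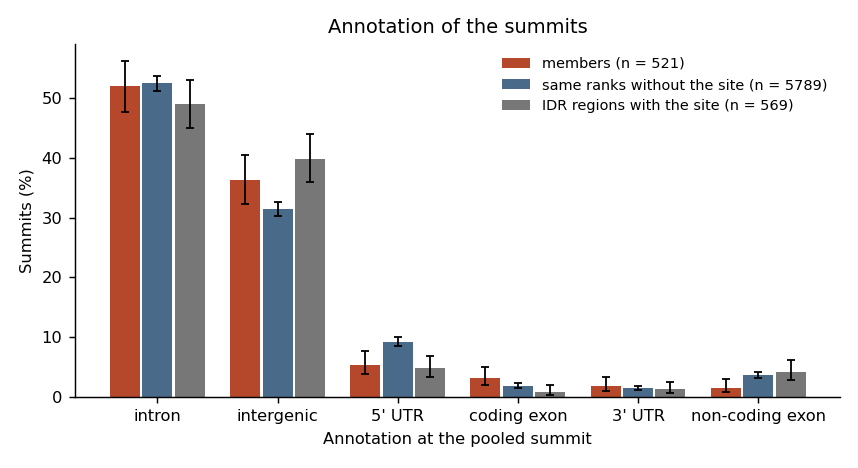
Annotation at the pooled summit for members (n = 521), regions of the same ranks without the site (n = 5789) and IDR regions with the site (n = 569), as the share of summits with 95% Wilson intervals. Introns and intergenic sequence hold most summits of each set, and 5′ UTRs hold fewer members than regions without the site.

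Members lay farther from the reproducible regions than their rank neighbours did. The nearest gene was also the nearest gene of an IDR region for 188 members (36.1%), against 43.9% of all regions of these ranks away from IDR regions and 44.6% of those without the site (difference −8.48, −12.7 to −4.08). An IDR region lay within 10000 bp of 44.1% of members and 57.3% of the regions without the site (difference −13.1, −17.5 to −8.64). Among regions more than 500 bp from a TSS alone, the shares were 41.6% and 57.6% (difference −16.0, −20.8 to −11.0). The median distance to an IDR region was 13922 bp in members and 7486 bp in the others. Below rank 10000 it was 18701 bp with the site and 13507 bp without it, so a long distance was not particular to the members. Of the lower regions with the site, 34.8% had an IDR region within 10000 bp (members minus lower 9.35, 4.14 to 14.6). The nearest gene was shared with an IDR region for 30.4% of them (difference 5.68, 0.678 to 10.8). Neighbouring regions are not independent.

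The 521 members had 485 different nearest genes, which is 2.67% of the 18164 annotated genes, and the gene lists that follow are read against that share, with gene length not matched. IDR regions had many more nearest genes, 2204 or 12.1% of all annotated genes, and the counts of list genes nearest to an IDR region are read against this larger share. Of the 12 bHLH-Orange genes, 3 were nearest to a member, all in the Enhancer of split complex on 3R, and 8 were nearest to an IDR region. E(spl)m5-HLH, E(spl)m7-HLH and E(spl)m3-HLH encode bHLH-Orange repressors that Notch signalling turns on. The member near E(spl)m5-HLH (FBgn0002631, chr3R:26028016-26028419) had a signal of 91.1 and stood at ranks 9451, 8968 and 9589 in replicates 1, 2 and 3, so it was found in all 3. Its core at 26028217 to 26028222 was 1.5 bp from the summit, in intergenic sequence 1517 bp downstream of the TSS. The member near E(spl)m7-HLH (FBgn0002633, chr3R:26036789-26037192, signal 64.7) lay 47 bp upstream of its TSS, with the core 5.5 bp from the summit. It stood at rank 10236 in replicate 1 and 5983 in replicate 3 and had no rank in replicate 2. The member at E(spl)m3-HLH (FBgn0002609, chr3R:26022173-26022576, signal 58.0) lay in a coding exon of that gene and was seen in replicate 2 only, at rank 3179. A further member nearest to lncRNA:CR45037 (chr3R:26000865-26001268, signal 71.5), picked out after its values were seen, lay 5059 bp from an IDR region at E(spl)mbeta-HLH. It stood at ranks 17770, 4965 and 3727.

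Of 29 Notch pathway genes, 3 were nearest to a member and 11 to an IDR region. E(spl)m4-BFM encodes a Bearded family protein of the same complex, and its member (FBgn0002629, chr3R:26026779-26027182, signal 65.0) stood at ranks 10853, 5650 and 15119. Its replicate 2 value was the only one among the 10000 highest. The gene numb encodes the asymmetrically inherited inhibitor of Notch, and its intronic member (FBgn0002973, chr2L:9454392-9454795, signal 66.3) stood at ranks 11497, 26137 and 11216, so no replicate held it among its 10000 highest. The gene spdo encodes a membrane protein needed for Notch signalling in asymmetric division. Its member (FBgn0260440, chr3R:30474706-30475109, signal 65.7) lay in an intron of the neighbouring PH4alphaEFB, at ranks 8913 and 5474 in replicates 1 and 2 and with none in replicate 3.

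Of 22 proneural and neural bHLH factor genes, 2 were nearest to a member and 6 to an IDR region. The gene ato encodes the proneural factor of chordotonal organs and photoreceptors. Its member (FBgn0010433, chr3R:8277733-8278136) had a signal of 112 and lay 117 bp upstream of the TSS, with the core at 8277934 to 8277939, 1.5 bp from the summit. It stood at ranks 4135, 3735 and 3313 in replicates 1, 2 and 3, and the nearest IDR region was 50614 bp away. The gene l(1)sc encodes a proneural factor of the achaete-scute complex, and its member (FBgn0002561, chrX:411170-411573, signal 77.4) lay in an intron of CG32816 at ranks 8836, 11608 and 8035.

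Of 20 neuroblast and temporal factor genes, 2 were nearest to a member and 11 to an IDR region. The gene pros encodes a homeodomain factor that promotes cell cycle exit and differentiation in ganglion mother cells. Its member (FBgn0004595, chr3R:11320309-11320712, signal 64.7) lay 7969 bp upstream of the TSS with the core 4.5 bp from the summit, at ranks 10190, 11763 and 16998. The zinc finger gene klu had a member (FBgn0013469, chr3L:11009066-11009469, signal 65.9) with its summit 80 bp upstream of the TSS, at ranks 10065 and 23339 in replicates 1 and 2. Both were thus outside the 10000 highest of every replicate. Of 18 neuron differentiation genes, 2 were nearest to a member and 7 to an IDR region. The synaptic calcium sensor gene Syt1 had a member (FBgn0004242, chr2L:2801497-2801698, signal 104) at ranks 7606, 6155 and 3567, found in all 3 replicates. The potassium channel gene Sh had an intronic member (FBgn0003380, chrX:18018746-18019149, signal 55.5) at ranks 7502, 23554 and 26341.

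Of the 8 homeotic genes, which set segment identity, 3 were nearest to a member and 4 to an IDR region. The intronic member of pb (FBgn0051481, chr3R:6731496-6731899, signal 83.3) stood at ranks 23380, 4029 and 6253. The intronic member of abd-A (FBgn0000014, chr3R:16816183-16816586, signal 77.4) stood at ranks 2735 and 6371 in replicates 2 and 3 and had none in replicate 1. The member of Antp (FBgn0260642, chr3R:6938714-6939117, signal 66.2) stood at ranks 25842 and 12989 in replicates 1 and 2. Replicate 1 was therefore the weakest for pb and abd-A, and no replicate held the region nearest to Antp among its 10000 highest. A further member near lncRNA:CR45901 (chr3R:6831762-6832165, signal 114) lay in an intron of the homeotic gene Scr, at ranks 5200, 4518 and 2371. The member near lncRNA:CR43252 (chr3R:6918162-6918565, signal 101) lay in an intron of Antp, at ranks 7174 and 3433 in replicates 1 and 2. The member near modSP (chr3R:16672136-16672539, signal 108) lay in an intron of the homeotic gene Ubx and had a rank in replicate 2 only, 2586.

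Of 10 clock genes, 2 were nearest to a member and 3 to an IDR region: vri and Pdp1, bZIP factors with opposite actions on Clock transcription. Pdp1 had a pair of intronic members, of which the higher (FBgn0016694, chr3L:7835066-7835469, signal 85.5) stood at ranks 3889 and 12019 in replicates 1 and 2. The member in an intron of vri (FBgn0016076, chr2L:5303207-5303610, signal 63.0) was seen in replicate 1 only, at rank 5271. Of 20 genes on the list named for E-box binding bHLH factors, only ss was nearest to a member, and 8 were nearest to an IDR region. The gene ss had a pair of members in its intron, and whether its protein binds the E-box was not tested. The higher of the pair (FBgn0003513, chr3R:16389294-16389697, signal 111) stood at ranks 1765 and 8627 in replicates 2 and 3. The lists of EGFR and FGFR signalling (aop, 1 of 16) and of muscle and heart (Mef2, 1 of 13) each had a single gene nearest to a member, and glial fate (0 of 10) and cell cycle (0 of 14) had none. The ETS repressor gene aop had an intronic member at ranks 28172, 4073 and 23309, and the myogenic factor gene Mef2 had an intronic member at 7081 and 8597 in replicates 1 and 2.

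Replicates often disagreed about the highest members. Of these, pum, an RNA-binding translational repressor gene, had an intronic member (FBgn0003165, chr3R:9127823-9128226) at rank 4952 in replicate 1 and 2181 in replicate 3, with no rank in replicate 2. Its core was 84.5 bp from the summit, and an IDR region at pum lay 945 bp away. The RNA-binding protein gene Rbp6 had an intronic member (FBgn0260943, chr3L:17121252-17121655, signal 114) at ranks 4982, 4115 and 3224. The member 148 bp upstream of btd, a zinc finger gene of head segmentation (FBgn0000233, chrX:9693836-9694239, signal 113), stood at rank 9297 in replicate 1 and higher, at 2426 and 3594, in replicates 2 and 3. The neuroligin gene Nlg4, for a synaptic adhesion protein, had a member in its 5′ UTR (FBgn0083975, chr3R:20204681-20205084, signal 113) at ranks 4972, 3108 and 6892. The intergenic member near CG4766 (FBgn0027546, chrX:5996566-5996669, signal 114.999) stood at 10477 in replicate 1 and at 2720 and 3208 in the others. The member near CG13707 (FBgn0035578, chr3L:4844438-4844568, signal 114) stood at 8138, 2730 and 2957. Replicate 1 was the lowest for btd, CG4766 and CG13707, and replicate 2 had no rank for pum. The remaining highest members had as nearest genes hebe, Tsp42Eg, the aquaporin family gene Drip and CG16704. Further ones were nearest to the pseudogene CR46418, the non-coding gene lncRNA:CR46259, and a snoRNA gene (FBgn0263459). Replicate 1 gave the best rank for Tsp42Eg (1469, its only rank), the snoRNA gene (1692), lncRNA:CR46259 (2117), CR46418 (2694) and Drip (3629). In contrast, replicate 1 was the lowest for hebe (10173) and had no rank for CG16704.

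The 21 extended sites lay 3.5 to 85.5 bp from the summit, with a median of 25.5 bp, and 10 lay within 25 bp. The phosphatase gene Ptp10D had such a site in an intron (FBgn0004370, chrX:11625835-11626238, signal 110), 3.5 bp from the summit, at ranks 8528, 6009 and 2890. The receptor gene AstA-R1, for the neuropeptide allatostatin A, had one in an intron (FBgn0266429, chrX:3596504-3596907, signal 106), 11.5 bp from the summit, at ranks 6438, 5022 and 5272. Both were found in all 3 replicates, and their nearest IDR regions were 60374 and 100238 bp away. The member near bdl (FBgn0028482, chr2L:4314238-4314641, signal 100.1) lay in a coding exon of tutl, an immunoglobulin family gene, with the site 49.5 bp from the summit, at ranks 12602, 3291 and 3923. The member near CG14937 (FBgn0032377, chr2L:11796963-11797366, signal 80.1) lay in a coding exon of crol, a zinc finger gene, with the site 21.5 bp from the summit, at ranks 6189 and 13125 in replicates 2 and 3.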

How the data were processed

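Per the deposited file listings, each replicate list was made from that replicate's alignment and a control, the pooled list from all 3 and a control, and the IDR list from these lists (dm6). For the aligner, peak caller, IDR settings and read depth the sources used here give nothing. The deposited signal value orders regions within a list; the deposited −log10 q-value is described only; the deposited summit is an offset from the region start. Replicates are labelled as biological replicates, and their p-values measure only the spread between these samples.

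Motifs were searched on both strands in the release 6 sequence. The annotation was Ensembl release 115, without transposable elements, with 23998 TSS positions. Shares have 95% Wilson and differences Newcombe intervals. Replicate values were compared by exact permutation with Python 3.11.15, numpy 2.4.6 and scipy 1.17.1. All 200 sites written into 400 simulated regions were found, and no others. Any other copy had been removed from the simulated sequence beforehand, so this checks the search itself and not the regions.

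The members, gene lists and tests were chosen with earlier results of these data known. The text names members from the 15 highest, up to 10 with the extended site and up to 3 per gene list, of 12 lists. Alternatives were other windows, ranks, overlaps and distances, leaving out a replicate, and a replicate block. Rank weights in steps of 100 ranks and the split by distance to a TSS were added after seeing the data.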

Additional observations from a re-analysis of the deposited data

How the results depend on the processing

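The share of members found in all 3 replicates, 12.9%, was 7.29% with summits within 50 bp, 18.04% within 200 bp, 17.3% by reciprocal overlap of 50% or more, 0% with as many highest regions of each replicate as passed IDR and 47.2% with 30000. It was 22.7% in the upper part of the ranks, split at the middle, and 0% in the lower part. With a replicate left out, the share found in the other pair ranged from 23.4% to 29.6%, since fewer lists had to hold the region. The mean difference in members found per replicate was −2.28 percentage points in the lower part, reversed in sign, and the cause was not tested. It kept its direction under the other 14 alternatives. With as many highest regions as passed IDR and the others weighted to the members' ranks, it was −0.815, a combination outside these alternatives. The difference in replicate summits near the site, against lower regions, was −0.315 at 15 bp, and kept its direction under the other 7. Against IDR regions it kept its direction under all 8. The replicate numbers are shared by construction, since members and comparison regions come from the same libraries: paired by number (replicate block), the difference in members found stayed 4.25 (exact p = 0.5), and the differences in summits near the site stayed 2.13 and −11.3 (p = 0.25 each, the smallest that 3 pairs allow). Pooled summits near the site were 25.9% within 15 bp and 67.8% within 50 bp, where an even spread gives 15.3% and 51.0%. Members away from promoters were 86.5% with CACGTG within 50 bp, 77.0% at 1000 bp and 88.3% at 200 bp from a TSS. The extended site, class C site and nearest gene shares stayed inside their intervals under 4 alternatives each. With 3 libraries, unknown depth and no second group, no test over replicates can pass 0.05.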

Other observations

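Several genes were nearest to more than 1 member, and they were listed after their values were seen. The gene bru3, which encodes an RNA-binding protein of the Bruno family, had 5 members, all in its introns on 3L. Their signal values were 109, 107, 77.9, 76.2 and 67.5. The bru3 member at chr3L:13647131-13647337 stood at ranks 13030, 3146 and 1821 in replicates 1, 2 and 3, and the one at chr3L:13668818-13669221 at 5596 and 3917 in replicates 2 and 3 with none in replicate 1. The bru3 member at chr3L:13699705-13700108 was higher in replicates 1 and 2, at 6900 and 7430, than in replicate 3, at 24224. The genes CG5888 and sick had 4 members each, and 2mit and CG7329 had 3 each, while 458 of the 485 genes had 1. Whether long genes gather more members was not tested.

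Of 14 other motifs searched around the summit, several differed between the centre and the flanks of the members in the same way as in regions of the same ranks without CACGTG. The repeat CACACACA stood in 12.7% of member centres and 4.13% of their flanks, and in 10.9% and 5.55% of the others. GAGAGAG stood in 5.95% and 2.495%, and in 5.94% and 3.66% of the others. The homeodomain motif TTAATTA was less frequent at the centre of the members, at 5.57% against 11.04%, as it was in the others, at 6.17% against 9.65%. None of the 14 motifs had an interval of the difference between members and others that left out 0.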
